A study of Mus musculus with 3 samples.

Results

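The Lcn5 and Rnase13 cells come from the caput, the head of the mouse epididymis, the duct in which sperm mature. They are taken here as principal cells of its epithelium, a name that only some of the usual markers bear out. They were chosen by the level of 6 genes, Ntsr2, Mbnl3, Rnase13, Lcn5, Muc5b and Defb30 (panel D), and numbered 294 of the 4961 caput cells (5.93%, exact binomial 95% interval 5.29 to 6.62) and of the 14845 cells of the series. The series holds single-cell RNA libraries of the caput, corpus (body) and cauda (tail) of untreated wild-type C57BL/6 mice aged 56 days, with 1 library for each region. The tissue was digested and strained and red blood cells were lysed. How many mice went into each library is not stated in these sources. With 1 library for each region there is no replicate, so no test was made, and each interval covers counting error only. Region and library cannot be told apart.

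Principal cells are the main secretory cells of the epididymal duct. They release proteins into the lumen that coat or change passing sperm, and the set of secreted proteins shifts along the duct from segment to segment. Many of these proteins come from families that expanded as neighbouring genes, such as the lipocalins, which carry small lipophilic molecules, the beta-defensins, which are small cationic antimicrobial proteins, and the ribonuclease A family. Lcn5 encodes a lipocalin that binds retinoic acid in the epididymal lumen.

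A caput cell entered with at least 2000 unique molecular identifiers (UMIs, each standing for 1 captured RNA molecule) and at most 2 UMIs in the sum of Krt5, Foxi1, Ptprc, Pecam1 and Dcn, which mark basal cells, clear cells, leukocytes, endothelium and fibroblasts. Of the 4961 cells, 4843 had the depth and 2801 of those passed the marker limit. The UMIs per 10000 of panel D and of 3 other panels were divided by their mean over all caput cells, which gives a fold for each panel, and a cell was a member where fold D was the largest and at least 1. Panel A (Lypd8, Ppy, Defb15, C1qtnf9) took 362 cells, panel B (Defb47, Defb18, Spink13, Serpinf2) took 415, panel C (Cst12, Adam28, Defb48, Teddm2, Ly6g5b) took 1080, and 650 cells reached no panel. These are called A, B, C, D and no-panel cells. D cells had a median of 5817.5 UMIs (2025 to 54456) and 1983 genes, and their median mitochondrial share of 5.70% lay beside 4.86%, 5.03% and 4.36% in A, B and C cells. No cell was removed as a doublet and no doublet caller was run, so doublets may be among the members. Caput and corpus shared 14 cell barcodes and caput and cauda 21, and none of them belonged to a D cell.

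Lcn5 and Defb30 held nearly all of the panel's signal. Of the panel D UMIs in D cells, 58.8% came from Lcn5, 34.4% from Defb30, 3.12% from Ntsr2 and 2.21% from Rnase13, with the rest from Mbnl3 and Muc5b (0.273%). Levels are given as CPM, the UMIs of a gene per 1000000 UMIs summed over the cells of a group. Since the rule used these genes in these cells, their levels in the caput are a description. Lcn5 stood at 16530 CPM in D cells (16374 to 16688) and at 2482 in A, 671 in B and 319 in C cells. Per cell it ranged up to 360 UMIs per 10000 with a median of 149, and all 294 cells had at least 1 UMI. Defb30, a beta-defensin, stood at 9661 CPM in D cells and at 209, 377 and 369 in A, B and C cells, and 3 members lacked it.

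The other panel genes were scarcer and told D cells from A cells less evenly. Ntsr2 encodes a neurotensin receptor, and its 878 CPM in D cells lay beside 106 in A, 20.1 in B and 16.1 in C cells. Rnase13 encodes a member of the ribonuclease A family, and stood at 620 CPM in D cells, 240 in A, 13.9 in B and 8.87 in C cells. Mbnl3 encodes a muscleblind RNA-binding protein and had 338, 19.0, 4.74 and 5.36 CPM in D, A, B and C cells. Muc5b encodes a gel-forming mucin and had 198 UMIs in D cells (76.8 CPM, 66.5 to 88.3), with 6.45, 1.67 and 0.975 CPM in A, B and C cells. Among the 294 members, 61 had no UMI of Ntsr2, 75 none of Rnase13, 102 none of Mbnl3 and 197 none of Muc5b. Rnase13 was the panel gene with the smallest distance between D and A cells.

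RNA of the panel genes was also counted in cells of other types, where free RNA can give UMIs of a gene the cell does not express. In caput cells taken as endothelial by 5 or more UMIs of endothelial markers (343 cells, median 6478 UMIs), Lcn5 stood at 793 CPM, Defb30 at 434, Ntsr2 at 45.4, Rnase13 at 25.1, Mbnl3 at 17.5 and Muc5b at 2.75. After each cell was thinned to 2000 UMIs, Lcn5 was seen in 100% of D cells and in 53.1% of endothelial cells, and Rnase13 in 51.7% and 3.50%. Before thinning, 74.5% of D cells had a UMI of Rnase13. The Lcn5, Defb30, Ntsr2 and Rnase13 levels of B and C cells were below those of the endothelial cells and are read as background.

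**Figure D1:**
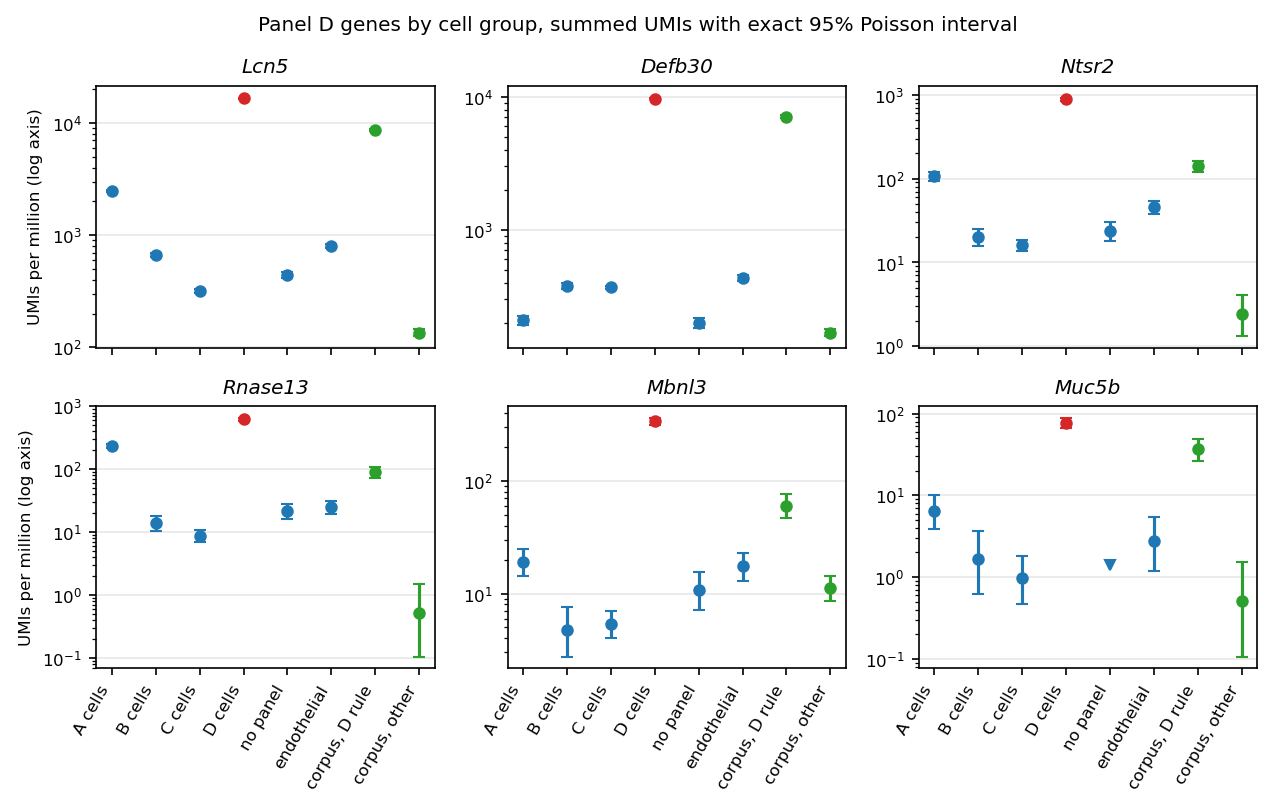
Levels of the 6 panel D genes in CPM (log axis) by cell group, with exact 95% Poisson intervals. The triangle marks the upper bound where no UMI was counted. D cells (red) stand above every other group for each gene, and the corpus cells that meet the same rule (green) come next for 5 of the genes, all but Rnase13, for which A cells come next.

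The panel genes lie on 5 chromosomes. Lcn5 is on chromosome 2 (25657952 to 25661977, plus strand, GRCm38), Rnase13 on chromosome 14 (51921362 to 51922773, minus strand) and Defb30 also on chromosome 14 (63034087 to 63049960, minus strand). Ntsr2 is on chromosome 12 (16653382 to 16660227, plus strand), Mbnl3 on chromosome X (51117269 to 51206532, minus strand) and Muc5b on chromosome 7 (141839070 to 141873084, plus strand). All 6 are annotated as protein-coding. Defb30 overlaps Defb42 on the opposite strand (63046991 to 63058149), and no source used here says whether the counting used strand. The promoters of the 3 genes that name the cells or carry most of their signal follow, to set their sequences beside the levels. They run from 250 bases before to 50 bases after the RefSeq start on GRCm38.p6 and are written 5′ to 3′ on the gene's strand, at chr2:25657702-25658001 (plus), chr14:51922724-51923023 (minus) and chr14:63037797-63038096 (minus). The RefSeq start of Defb30 lies inside the longer GENCODE gene. Capitals mark any match on either strand to TATAAA (the TATA box) or AGGTCA (the hexamer of several nuclear receptors), or to their reverse complements.
Lcn5: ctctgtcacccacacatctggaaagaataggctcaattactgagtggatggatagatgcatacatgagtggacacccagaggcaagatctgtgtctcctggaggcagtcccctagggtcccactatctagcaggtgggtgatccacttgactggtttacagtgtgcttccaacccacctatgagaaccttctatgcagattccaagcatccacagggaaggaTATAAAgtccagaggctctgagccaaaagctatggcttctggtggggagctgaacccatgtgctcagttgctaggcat
Rnase13: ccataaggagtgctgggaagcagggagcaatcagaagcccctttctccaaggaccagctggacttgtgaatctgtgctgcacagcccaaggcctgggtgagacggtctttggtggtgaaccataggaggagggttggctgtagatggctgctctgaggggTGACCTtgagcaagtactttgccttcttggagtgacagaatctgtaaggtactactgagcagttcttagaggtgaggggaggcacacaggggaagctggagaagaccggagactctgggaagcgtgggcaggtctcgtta
Defb30: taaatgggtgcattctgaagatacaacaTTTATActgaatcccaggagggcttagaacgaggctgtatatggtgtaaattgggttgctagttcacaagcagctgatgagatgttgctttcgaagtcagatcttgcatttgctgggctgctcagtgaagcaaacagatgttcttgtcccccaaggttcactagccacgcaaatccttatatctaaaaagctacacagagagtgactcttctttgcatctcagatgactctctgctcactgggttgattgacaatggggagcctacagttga
Lcn5 held TATAAA at position -28 from its start. Defb30 held the reverse complement of TATAAA, and Rnase13 held that of AGGTCA. The Ntsr2 and Mbnl3 promoters, which are not shown, held neither motif. Among all 32851 RefSeq promoters of 300 bases, 13.6% held TATAAA and 16.3% AGGTCA on either strand. Of the 5 panel promoters matched in RefSeq, 2 held TATAAA and 1 AGGTCA, so neither was in all of them. A match is a description and not a site.

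The name of principal cells rested on some of the usual markers only. Of 11 principal cell markers, Clu (11398 CPM, clusterin), Gpx5 (17471, a secreted glutathione peroxidase), Adam7 (3567, a membrane protein of the ADAM family) and Aqp9 (23.7, a water and solute channel) exceeded 1.5 times their endothelial level, which was 1583, 11098, 1406 and 5.16 CPM. The other 7, Cst8, Cst11, Lcn8, Lcn9, Rnase10, Spag11b and Defb20, were at or below it. In B and C cells 10 of the 11 exceeded that bar, and in A cells 6. Gpx5 did not exceed it throughout D cells. In the 4 bins of 56 D cells described below it had 41351, 18388, 5540 and 2694 CPM, the last 2 below the endothelial level. Markers of basal, clear, endothelial and fibroblast cells were near their level in A cells. The entry rule capped a gene of each of these lists in both groups, so this was largely set in advance. Basal markers summed to 85.7 CPM, clear cell markers to 226, endothelial markers to 37.6 and fibroblast markers to 94.6, against 90.7, 255, 33.3 and 87.3 in A cells. Ciliated and dividing cell markers, which the rule did not cap, had 22.1 and 245 CPM against 12.9 and 145 in A cells. Smooth muscle markers had 90.4 against 111. Macrophage markers were higher, at 131 CPM against 94.1 in A, 74.4 in B and 70.8 in C cells, and haemoglobin genes stood at 8296 CPM against 5287, 6800 and 4186. Most of both came from the members of low fold, described next.

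Fold D is a range and not a sharp class. Its median in D cells was 8.54, with the middle 50% from 5.31 to 10.9 and a highest value of 18.5. The 16 members just inside the threshold (fold under 1.2) had a median of 19.4 Lcn5 UMIs per 10000, beside 15.5 in the 22 cells just outside it (fold 0.8 to under 1, D the largest). In 41 members the next panel came within 1.5-fold of panel D. That next panel was A in 228 of all members, and 159 reached fold 1 of panel A, 15 of B and 13 of C. The overlap with panel A came from Defb15, a beta-defensin, since the median fold A was 1.17 with Defb15 and 0 without it.

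The members at low fold differed from the rest in depth and in RNA of other cells. The 35 cells with fold D from 1 to under 2 had a median of 2839 UMIs, and haemoglobin genes stood at 99468 CPM in them. Macrophage markers stood at 1568 CPM and 6 had at least 5 such UMIs. The 35 cells from 2 to under 5 had a median of 4070 UMIs, and the 224 cells at 5 and over had 7259, with 2817 CPM of haemoglobin and 53.8 of macrophage markers. Lcn5 stood at 2375, 6824 and 18063 CPM across these bands, and the lowest band was below the 2482 CPM of A cells. Whether the 35 cells of the lowest band are principal cells was not tested.

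Without the panel genes, D cells still lay mainly beside other D cells. In 20 principal components of 2000 variable genes, with all 19 panel genes left out, 79.9% of the 15 nearest neighbours of a D cell were D cells, which made up 10.5% of the cells. The rest were 7.01% A, 2.79% B, 2.99% C and 7.32% no-panel cells. The share was 94.4% in the 224 cells at fold 5 and over, 52.8% in the middle band and 14.1% in the 35 cells under fold 2, whose neighbours were no-panel cells in 47.2%. The genes of the panels and these other genes come from the same cells, so the shares describe likeness and are not an independent check.

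**Figure D2:**
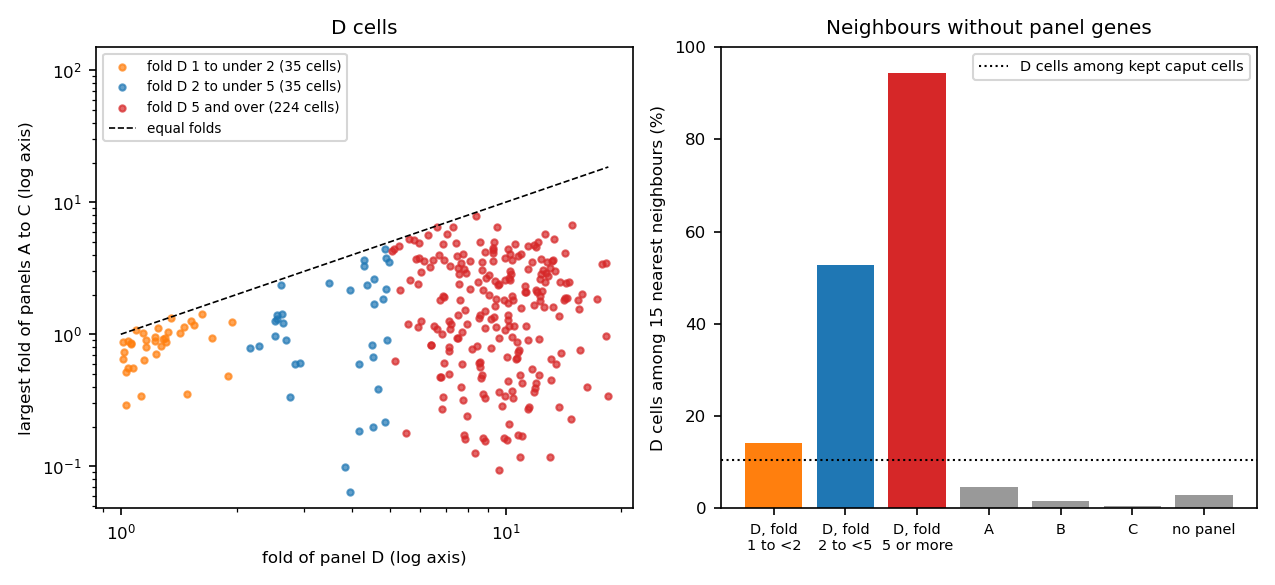
Left, fold of panel D against the largest fold of panels A to C in each of the 294 D cells (both log axes), coloured by band. Right, the percentage of D cells among the 15 nearest neighbours when panel genes are left out, which is 94.4% at fold 5 or more and 14.1% under fold 2, with the 10.5% share of D cells dotted.

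Outside the panels, D cells were compared with the 3 other caput groups gene by gene. A size rule took genes with a CPM ratio of at least 2, an exact 95% interval of the ratio above 1.5 and at least 100 UMIs in the higher group. Against A cells, 166 of 3612 genes were higher in D cells (4.60%) and 163 lower (4.51%). Against B cells, 356 of 3870 were higher (9.20%) and 303 lower (7.83%), and with edgeR TMM factors the balance turned, to 286 and 392. Against C cells, 440 of 6712 were higher (6.56%) and 632 lower (9.42%). TMM factors gave 343 and 830 there, and with sums thinned to the smallest group the balance turned, to 443 and 347. C cells held 10261351 UMIs and D cells 2578619, and a larger total lets more genes reach 100 UMIs. Of 3485 genes with enough UMIs in all comparisons, 143 were higher in D cells than in each of A, B and C (4.10%) and 65 were lower than in each (1.87%). The counts of listed genes below are to be set beside these shares. The comparisons share the D cells, and the cells were grouped by expression, so the counts describe the groups. Of the 143 genes, A cells held the second-highest level for 121. The median log2 ratio over all measured genes was -0.02 against A, 0.17 against B and 0.15 against C cells. In D cells, 118 of the 143 genes stood at 2 or more times their endothelial level.

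When the D cells were limited to the 224 at fold 5 and over, where macrophage and haemoglobin RNA were low, 143 genes were higher than in each group, and 135 of them were among the 143 of all D cells.

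Most beta-defensins that could be compared differed from all 3 other groups. Of 37 listed beta-defensin genes outside the panels, 22 could be compared with all 3 groups, 13 were higher in D cells than in each of them and 3 were lower. Among all genes compared, 4.10% were higher than in each group and 1.87% lower. The median log2 ratio of the measured members was 1.31 against A, 3.72 against B and 2.48 against C cells. Defb39 stood at 4573 CPM, 12.1-fold over A cells (11.4 to 12.9) and 77.0-fold over B cells. Defb21 had 2280 CPM in D cells, with 78.8 in A, 73.0 in B and 447 in C cells. Defb28 (1785 CPM), Defb23 (1692), Defb37 (1131) and Defb29 (1116) were higher than in each group as well. The 3 lower members were Spag11b, Defb20 and Defb41. Spag11b, a sperm-associated beta-defensin-like gene, had 4524 CPM in D cells and 36649, 32995 and 16579 in A, B and C cells. Defb20 had 4060 CPM in D cells and 13821, 36089 and 18592 in the others, and Defb41 had 956 against 3230, 6566 and 4680. The D levels of all 3 were at or below the endothelial level. The members have similar sequences, and no source used here says how shared reads were assigned.

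Neighbouring genes differed in which group held their highest level. In the lipocalin cluster of chromosome 2, Lcn8 ends at 25656217 and Lcn5 begins at 25657952. Lcn8 had 1766 CPM in D cells and 22611 in C cells, while Lcn5 had 16530 and 319. Lcn5 is a panel D gene, so its highest group was set by the rule and is no result. Downstream of Lcn5, Lcn6 (25676786 to 25681608) had 234 CPM in D cells against 2247, 2967 and 1805 in A, B and C cells, and Lcn10 (25682726 to 25686081) had 104 against 423, 1518 and 1895. No lipocalin outside the panel was higher in D cells than in all 3 groups, and Lcn6, Lcn10 and Obp2a were lower than in each, of 9 compared. Among all genes compared, 1.87% were lower than in each. Lcn8 and Lcn9 at 1766 and 1920 CPM in D cells were below the 4240 and 4614 CPM of endothelial cells.

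In the ribonuclease cluster of chromosome 14, neighbours also differed in their highest group. Rnase10 (51007751 to 51010758) had 412 CPM in D cells and 5427 in C cells. Its neighbour Rnase9 (51038459 to 51041869) had 7483 CPM in D cells, 27.0-fold over A (25.2 to 29.0), 57.9-fold over B and 80.3-fold over C cells. Rnase12 (51056698 to 51057661) had 1246 CPM in D cells, against 532, 507 and 533 in A, B and C cells, so both of these were highest in D cells. In the defensin cluster further along, Defb48 was the gene of C cells (17567 CPM), Defb47 that of B cells (28945) and Defb30 that of D cells (9661), but panel membership fixed this, and it is no result. Defb42, which overlaps Defb30, was nearly level across the groups, at 6047 CPM in D cells and 6276, 7775 and 5892 in A, B and C cells. On chromosome 8, Spag11b (19140759 to 19143010) and Spag11a (19157886 to 19159578) went opposite ways, and Spag11a had 764 CPM in D cells against 47.6, 27.3 and 10.2 in A, B and C cells.

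**Figure D3:**
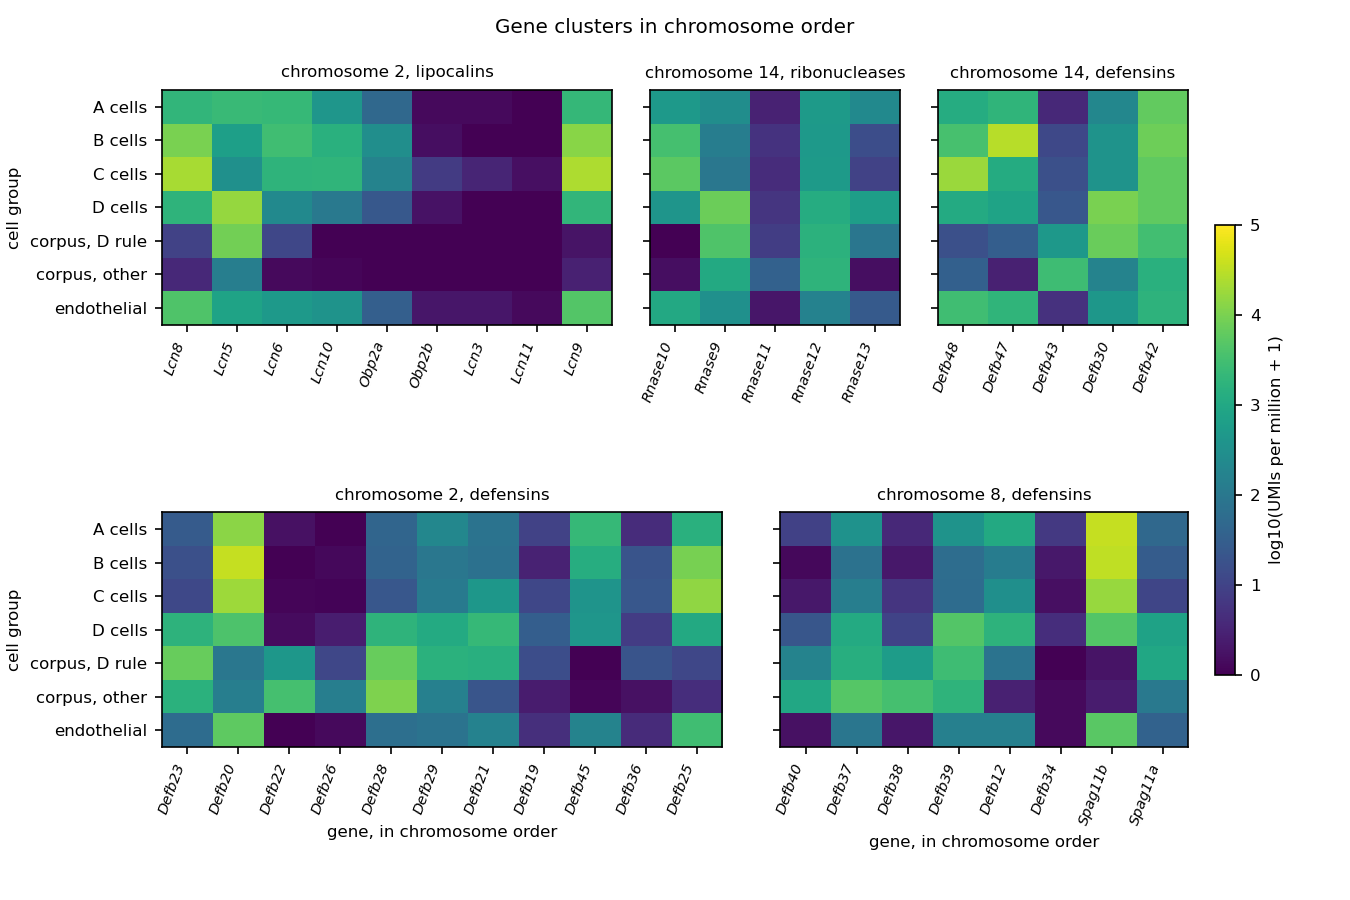
Levels, as log10 of CPM plus 1, of genes in 5 clusters in chromosome order by cell group. Within a cluster the bright gene changes with the group, and Lcn8 stands at 22611 CPM in C cells. Lcn5 (16530 CPM in D cells), Defb30, Defb47 and Defb48 are panel genes, so their bright caput group was set by the rule. Lcn5 and Defb30 are also genes of the rule in the corpus cells that meet it. Rnase9, which is in no panel, stands at 4202 CPM in those corpus cells against 7483 in D cells.

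Some protease inhibitor genes were higher in D cells. Spink8, a Kazal-type inhibitor gene, had 16906 CPM in D cells, with 6598 in A, 2014 in B and 968 in C cells. Spink11, of the same family, had 8636 CPM in D cells, 3.39-fold over A cells (3.30 to 3.48) and 100.5-fold over C cells. The serpin gene Serpina1f had 2411 CPM, 8.19-fold over A, 61.8-fold over B and 75.7-fold over C cells, and Serpina16 had 193 against 8.49, 1.67 and 1.46. Among all genes compared with all 3 groups, 4.10% were higher than in each and 1.87% lower. Of 6 Kazal inhibitors compared with all 3 groups, 2 were higher than in each and none was lower. Of 12 WAP and Kunitz inhibitors, 4 were higher (Wfdc9, Wfdc13, Spint4 and Spint5) and Eppin and Wfdc2 were lower. Spint4 and Spint5 came from 7 members: the other 287 had 13.1 and 7.14 CPM of them, too few UMIs to be tested. Wfdc13 had 11427 CPM in those 7 members and 196 in the other 287. Wfdc9 had 1402 CPM in D cells, against 647, 92.5 and 37.3. The sperm-coating gene Crisp1 had 491 CPM, against 28.5, 27.0 and 96.6, with 6638 in the same 7 members and 353 in the other 287. C4bp, which encodes a complement-binding protein, had 1912 against 755, 268 and 757.

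Several metabolic, receptor and regulator genes were also higher, and those in this paragraph beyond the named-gene rule were singled out after their values were seen. Phgdh, Psat1 and Psph encode the 3 enzymes that make serine from a glycolytic intermediate, and had 93.8, 74.1 and 169 CPM in D cells, with 30.6, 14.9 and 26.2 in A cells. Shmt2 (45.0 CPM against 14.3 in A cells), the mitochondrial serine hydroxymethyltransferase, and Cth (84.5 against 29.9), which makes cysteine from cystathionine, were higher than in each of the 3 groups too. Slc39a8, a zinc and manganese importer, had 93.8 CPM in D cells and at most 1.95 in the others. Gc, which encodes the vitamin D-binding protein, had 241 CPM against 7.81, 8.08 and 4.19. Ramp3, a receptor activity-modifying protein of the calcitonin receptor family, had 185 CPM against 7.13, 5.29 and 5.94. Psat1, Psph, Cth and Ramp3 were lower in D cells than in the corpus principal-rule cells described below, while Slc39a8 and Gc were higher. The transcription factor gene Tfap2b had 292 CPM against 41.1, 14.2 and 12.4. Among 13 listed transcription factors compared with all 3 groups, Pax2 was higher than in each (41.5 CPM) and Runx1 lower (13.6). H2-K1, a class I antigen presentation gene, had 1420 CPM, 3.10-fold over A, 3.27-fold over B and 3.85-fold over C cells, and endothelial cells had 1634.

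Some of the 143 genes came from few cells. In 5 of them (Spint4, Spint5, Smcp, Dbil5 and Rgs1) 10 cells held at least 80% of the UMIs, and in 18 at least 40%. Dbil5, a testis-expressed gene, had all of its UMIs in D cells from at most 10 cells. Of 4 dividing cell markers, Birc5 was higher than in each group (48.9 CPM against 18.7, 5.85 and 23.5), and more than 40% of its UMIs came from 10 cells.

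The genes lower in D cells than in each group were mostly at or below the endothelial level. Of the 65, 52 were at or below their endothelial level in D cells, as were 15 of the 143 higher genes. Where that level is free RNA, the level within D cells cannot be read from these counts. Endothelial cells may express some of the 52 themselves, which was not tested. Gpx5 was above it, at 17471 CPM beside 11098, with 65958, 60840 and 36937 CPM in A, B and C cells. Cst11, a cystatin-like gene of the caput, had 892 CPM in D cells against 3858, 11082 and 11120. Adgrg2, an adhesion receptor of the efferent ducts and proximal epididymis, had 1118 against 4122, 6648 and 7562. Of 7 claudin and tight junction genes compared with all groups, 4 were lower in D cells than in each, beside 1.87% of all genes. They were Cldn2 (85.3 CPM against 312, 315 and 247), Cldn4, Cldn10 and Cldn14. Slc1a1, a glutamate and cysteine transporter, had 7.37 CPM against 47.2, 155 and 90.9. Of 17 listed targets of fibroblast growth factor and ERK signalling, 6 of the 7 with enough UMIs were lower than in B cells and 9 of 11 lower than in C cells. Among all genes, 7.83% were lower than in B cells and 9.42% lower than in C cells. Against A cells only 1 had enough UMIs, and it did not pass. Etv5, one of these targets, had 8.14 CPM in D, 10.2 in A, 83.3 in B and 136 in C cells.

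Other listed groups held no gene that passed in all 3 comparisons. None of 17 endoplasmic reticulum chaperones and none of 20 genes of N-glycosylation and secretion passed the size rule in all 3 comparisons in either direction. Their median log2 ratios lay between -0.29 and 0.04. None of 9 Hox genes passed in all 3, or against A or B cells. Against C cells 3 of 11 (Hoxa9, Hoxb1 and Hoxb7) were lower, beside 9.42% of all genes. The median log2 ratio against C cells was -0.46 over the measured Hox genes.

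**Figure D4:**
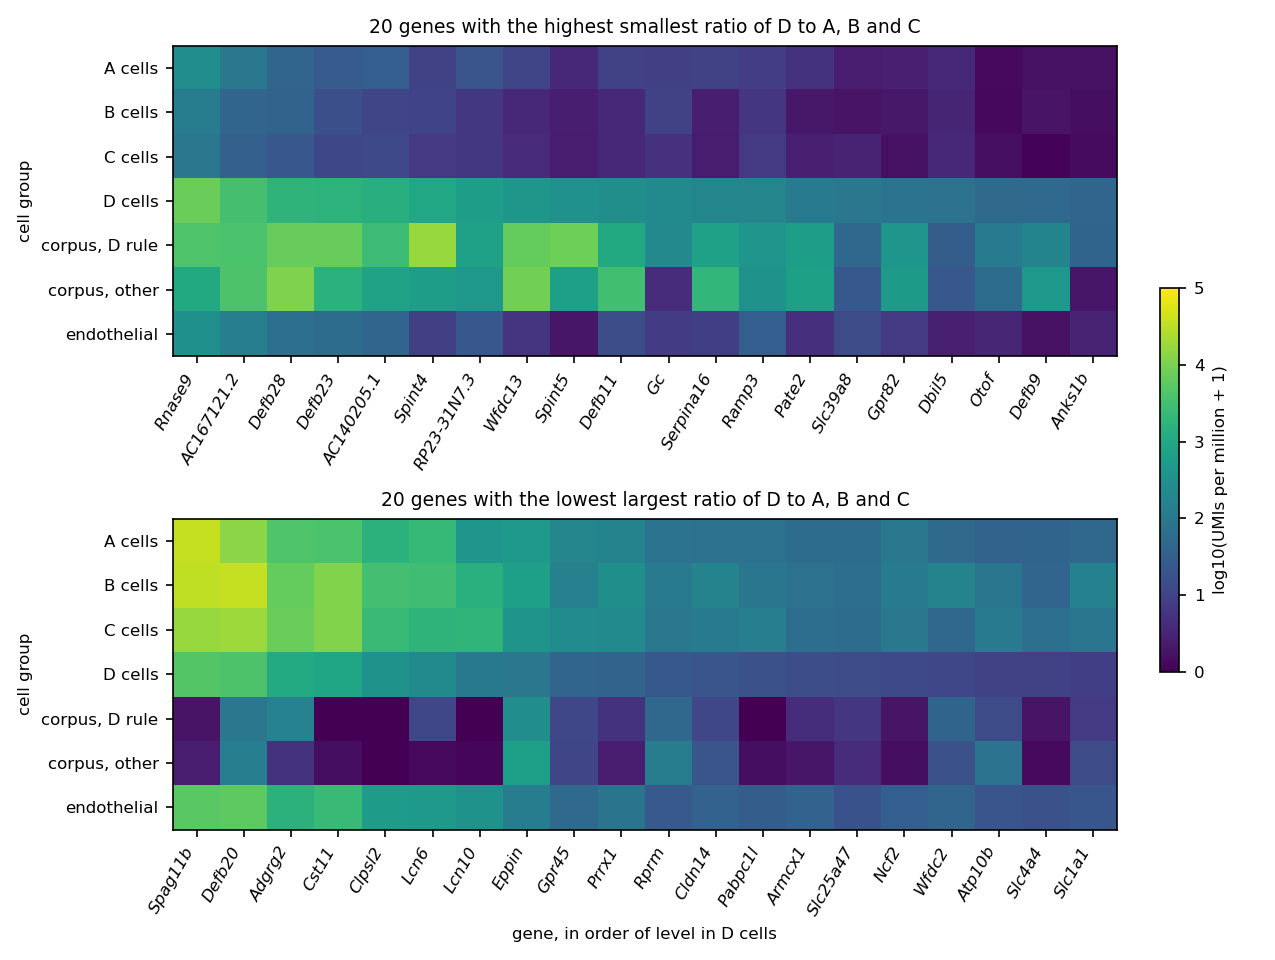
Levels, as log10 of CPM plus 1, of the 20 genes most above (top) and the 20 most below (bottom) all of A, B and C cells in D cells, by cell group. The higher genes are near the endothelial level in A, B and C cells, as Rnase9 with 277, 129 and 93.2 CPM against 324, while the lower genes are near it in D cells. For Anks1b, Dbil5, Defb9, Gpr82, Pate2, Spint4, Spint5 and Wfdc13, 10 cells held at least 40% of the D cell UMIs.

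D cells at fold 5 and over differed among themselves. After the data were seen, these 224 cells were ordered by Defb23 plus Defb28 per 10000 and cut into 4 bins of 56 cells, so those 2 genes are no result here. Median depth was 9462, 6772, 5566 and 8878 UMIs from bin 1 to bin 4. Gpx5 went from 41351 CPM in bin 1 over 18388 and 5540 to 2694 in bin 4. Spag11b had the same order, with 10064, 2139, 1760 and 1236 CPM. Endothelial cells had 11098 CPM of Gpx5 and 5344 of Spag11b, so bins 3 and 4 of Gpx5 and bins 2 to 4 of Spag11b lay below the level read as background and their order cannot be read. Slc38a5, an amino acid transporter gene, had 4533 CPM in bin 1 and 141 in bin 4 (557 in endothelial cells), Defb12 had 3631 and 386, and Defb15 had 4121 and 919. Bin 1 was thus the nearest to A cells in Gpx5, Spag11b and Slc38a5, which had 65958, 36649 and 5440 CPM in A cells. Defb15 is a panel A gene, so its level in A cells was set by the rule.

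Crisp1, Wfdc13, Cd52 and Spink8 were higher from each bin to the next. Crisp1 went from 8.73 over 23.8 and 180 to 1226 CPM, and Wfdc13 from 3.49 over 5.95 and 34.8 to 939. In bin 4, 1 cell with 107 UMIs of Spint4 held 183 UMIs of Wfdc13 and 82 of Crisp1, of 673770 UMIs in the bin. Cd52, which encodes a small glycopeptide that is transferred to sperm, had 424 CPM in bin 1 and 3915 in bin 4, and Gpx3 had 272, 260, 581 and 1294 CPM, with the first bins level. Spink8 had 11391, 14924, 19150 and 24808 CPM. In the other corpus principal-rule cells, a class of 754 cells chosen by 11 corpus genes that do not include Cd52, Cd52 had 18245 CPM.

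The panel genes had different levels along this range. Defb30 had 6631 CPM in bin 1 and 12712 in bin 4, and Lcn5 changed little, from 16454 to 19234. Rnase13 had 1142, 778, 437 and 398 CPM, Ntsr2 1236 and 689 in bins 1 and 4, and Mbnl3 435 and 272. The cells were chosen by the sum of these genes, so their courses describe the chosen cells only. Across all 294 thinned cells, Lcn5 and Rnase9, which is outside the panels, had a Spearman correlation of 0.73, which was 0.51 among the 224. Both values are over cells of 1 library that share its free RNA and were chosen by a sum that is mostly Lcn5. Variance over mean after thinning was 7.83 for Lcn5, 7.19 for Defb30, 1.73 for Rnase13 and 32.0 for Gpx5, beside 302 for the haemoglobin gene Hbb-bs and 140 for Spint4.

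**Figure D5:**
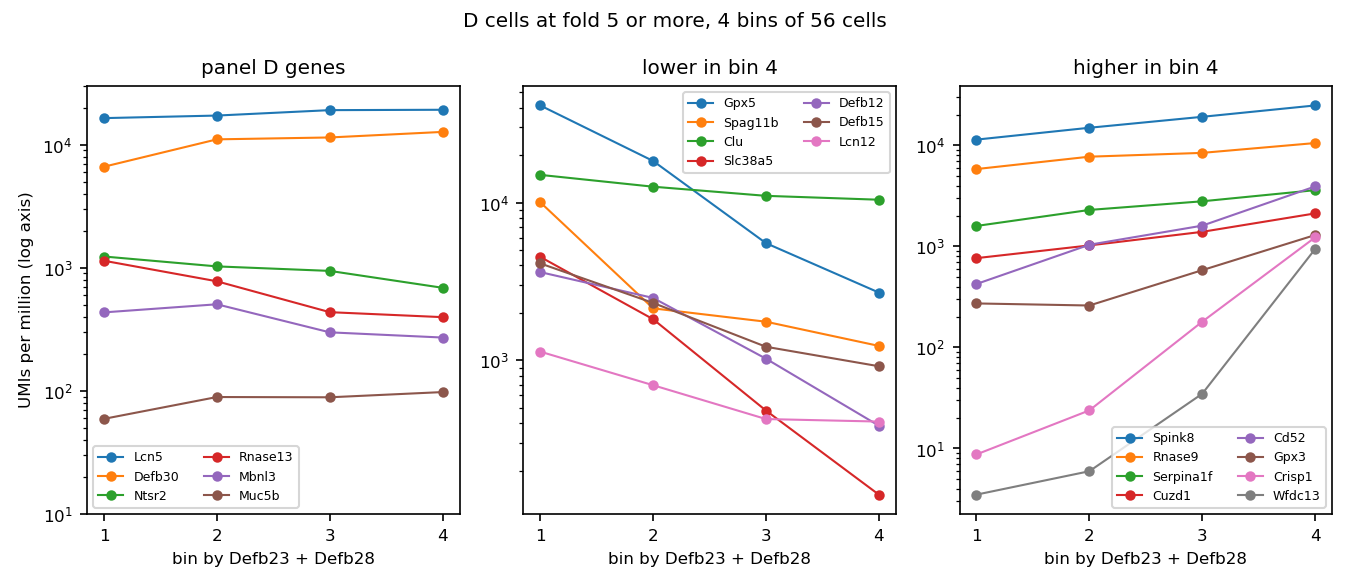
Levels in CPM (log axis) across 4 bins of 56 D cells at fold 5 or more, ordered by Defb23 plus Defb28. Rnase13 goes from 1142 to 398 CPM while Lcn5 stays between 16454 and 19234, Gpx5 goes from 41351 to 2694 (11098 in endothelial cells) and Crisp1 from 8.73 to 1226.

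A small set of members carried the Spint4 signal. In 7 D cells Spint4, a Kunitz-type inhibitor gene, reached 20 UMIs per 10000, and these held 98.7% of the Spint4 UMIs of D cells. They had 43946 CPM of Spint4, 15036 of Spint5, 15758 of Defb23 and 11427 of Wfdc13. Lcn5 stood at 5071 CPM in them and Rnase13 at 0, of 56797 UMIs. The other 287 members had 13.1 CPM of Spint4 and 634 of Rnase13. Without the 7 cells, 135 genes were higher than in each of A, B and C cells, all of them among the 143. This filter was added after the data were seen.

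The same rule, with the caput means, was applied to the other regions. In the corpus 194 of 1817 kept cells met it (10.7%, 9.29 to 12.2), beside 294 of 2801 in the caput (10.5%, 9.38 to 11.7). In the cauda 0 of 259 did, which allows a share of up to 1.16% by a limit of 3 cells (exact binomial upper bound 1.41%). The 259 passed only the depth and marker limits and may be of several types. Of the cauda cells, 57 met the 11-gene corpus principal rule described below. Corpus cells that met it had 8665 CPM of Lcn5, 7071 of Defb30 and 4202 of Rnase9, and 17101 of Spint4, a gene at 981 CPM in D cells. Rnase13 stood at 89.7 CPM and Ntsr2 at 139, below the 620 and 878 of D cells, and Gpx5 at 67.9. The rule sets a high sum of the 6 genes in these cells, with fold 1 at 30.3 UMIs per 10000 and no scaling by gene. Lcn5 and Defb30 are the abundant genes of the panel. That they provided most of the sum in both regions was thus largely set by the rule and is no result.

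Corpus principal-rule cells served as the comparison. These 874 cells had at least 500 UMIs per 10000 in 11 genes (Spint4, Defb23, Defb22, Pate1, Crisp1, Wfdc13, Wfdc15b, Spink8, Gpx3, Gstm7 and Serpina1f), 120 of them also met the panel D rule, and 754 are the other corpus principal-rule cells. Their median mitochondrial share was 11.99%, beside 5.70% in D cells. Against the 874 cells, 383 of 5494 genes were higher in D cells (6.97%) and 554 lower (10.1%). The count of lower genes depended on the corpus rule and on the UMI total of the group, 6559688 beside 2578619 in D cells. At 1000 UMIs per 10000 it was 52, with 266 higher. With sums thinned to the smallest group it was 341, with 376 higher. Gpx5 and Spag11b had 17471 and 4524 CPM in D cells and 6.86 and 1.22 in the corpus cells, and caput endothelial cells also held UMIs of both. Rnase9 was 6.02-fold higher in D cells (5.87 to 6.18). Crisp1, which is among the 11 genes of the corpus rule, was 27.5-fold lower. Of the 143 genes higher in D cells than in A, B and C cells, 52 were also higher than in the corpus cells (36.4%) and 25 were lower. The 65 genes lower than in A, B and C cells had a like share higher than in the corpus cells, 24 (36.9%). The 25 include Crisp1, Gpx3, Spint4 and Wfdc13, which are genes of the corpus rule.

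Within the corpus, the cells that met the panel D rule shared part of the D cell profile. Against the other corpus principal-rule cells, 100 of 5005 genes were higher in them (2.00%) and 192 lower (3.84%), or 72 and 271 with TMM factors. Of the 143 genes, 123 could be compared there, and 27 were higher (22.0%), 10 lower (8.13%) and 86 neither. Gc had 227 CPM in the corpus cells that met the rule and 3.27 in the others, Defb21 1437 and 19.5, Spink11 7620 and 383, and Spag11a 969 and 106. Rnase9 was 3.80-fold higher (3.66 to 3.95), and Cited1, a transcriptional coactivator gene, had 244 CPM against 10.2. Crisp1 and Gpx3 were lower too, but both belong to the 11 genes that chose the other cells, a rule that 120 of the 194 meet. The 10 lower genes also included Cd52, Serpina16 and Defb37, which had 6219, 715 and 1356 CPM, against 18245, 2024 and 4705 in the others. In these 3 genes the corpus cells that met the rule lay between D cells and the rest of the corpus.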

How the data were processed

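Single-cell RNA was measured in 1 library each of caput, corpus and cauda. STAR 2.7.3a alignment to GRCm38.p6 and molecule counting with UMI-tools are named per the submitters' processing notes, with no UMI-tools version. The authors deposited raw UMI counts of 24335 genes in 14845 cells, with 41500792, 21495211 and 18341476 UMIs in the 3 libraries and no column of another sample (0). The members and the 47 gene lists were chosen with earlier results of these data known. Counts were summed over the cells of a group and divided by their total (CPM), with exact Poisson and conditional binomial 95% intervals (Python 3.11.15, scipy 1.17.1). In simulated Poisson sums, the model behind the intervals, the size rule recovered large known folds. Those sums held no spread between cells beyond counting, so genes carried by few cells were not covered. Named genes were the panel genes, the 10 largest ratios in each comparison, the 20 genes most above and most below all 3 groups, up to 4 of each list, and the most variable and most Lcn5-like or Rnase13-like genes. Others were singled out after their values were seen, among them the genes followed along the bins. Tried alternatives were other UMI minimums, thinning, edgeR 4.0.16 TMM factors, mitochondrial and marker limits, and panels without 1 gene. Gene positions are from GENCODE M21, and promoters from RefSeq. Clone-named genes are counted but not described.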

Additional observations from a re-analysis of the deposited data

How the results depend on the processing

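No paired analysis was possible because each region had 1 library and nothing was tested. Of 129 recalculations of 16 results (cell counts, gene counts and the neighbour share), 112 stayed within 1.5 times the reported value; filters on D cells leave the counts within the corpus as they are. The ratios of the 6 panel genes between D cells and A, B and C cells together moved beyond their counting interval in 17 of 18 recalculations, as for Ntsr2 from 26.9 to 8.97 when taken as shares of thinned cells with a UMI. With no UMI allowed in the 5 markers of other cells, 148 cells were members. A minimum of 200 UMIs instead of 100 gave 109 higher and 98 lower genes against A cells, 219 and 195 against B cells, 277 higher against C cells, 233 higher against corpus principal-rule cells, 55 higher in corpus cells that met the rule, and 95 higher and 43 lower than all of A, B and C. A minimum of 50 gave 539 higher against B, 699 against C and 599 against corpus cells, and 169 within the corpus. With sums thinned to the smallest group, 347 genes were lower than in C cells and 341 lower than in corpus cells. With 1000 per 10000 as the corpus rule, 52 were lower than in corpus cells and 266 higher. With edgeR TMM factors (0.850 for B and 0.851 for C cells relative to D), 137 of the 143 genes remained. The alternatives at fold 5 and over and without the 7 Spint4-rich cells were chosen after the data were seen. Genes under 100 UMIs and levels near free RNA could not be read.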

Other observations

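Glutathione genes of D cells differed from A, B and C cells to unlike degrees. The peroxidases, mostly Gpx5, summed to 18874 CPM in D cells against 67012, 61500 and 37444 in A, B and C cells. The median log2 ratio of the S-transferases was -0.26, 0.52 and 0.92 against A, B and C cells. Against C cells 5 of 14 S-transferases were higher, beside 6.56% of all genes. Among 6 glutathione peroxidases compared with all 3 caput groups, Gpx3, the secreted plasma form, was higher in D cells than in each, at 648 CPM against 319, 82.8 and 36.6, while corpus principal-rule cells, whose rule includes it, had 7070, and Gpx5 was lower. Of the glutathione S-transferases, which join glutathione to electrophiles, 13 could be compared and none was higher than in each group. Gstm7 had 872 CPM in D cells, 670 in A, 285 in B and 177 in C cells, and passed the size rule against B and C cells. Gstt2 was the only member lower than in each group, at 33.0 CPM against 80.9, 72.2 and 101, and its level lay below the 57.4 CPM of endothelial cells. Of 4 mucin-type O-glycosylation genes compared, Gcnt1, which branches O-linked glycans, was higher than in each group, at 80.7 CPM against 19.7, 7.25 and 16.5. St6gal1, a sialyltransferase gene, had 216 CPM in D cells against 59.1, 34.6 and 17.8. Corpus principal-rule cells had 2.74 CPM of St6gal1 and 4.88 of Gcnt1. St6gal1 was singled out after its values were seen.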
